A study of Sus scrofa with 32 samples.

Results

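The cells described are ileal CD4 T cells without a transcript of PDCD1, the gene of the inhibitory receptor PD-1. They were chosen by a gate on unique molecular identifiers (UMIs, 1 per captured transcript): cells with at least 1250 UMIs, at least 550 genes and at most 12.5% mitochondrial UMIs had to carry CD3E and CD4 and to carry no UMI of PDCD1, CD8B, TRDC, CCR7, LEF1, S1PR1, CD79B, SIRPA or TOP2A. The gate kept 221 of 35386 filtered ileal barcodes. Single-cell RNA-seq libraries came from 2 mixed-breed pigs of 7 weeks, a female (pig 1) and a male (pig 2), with no treatment. From the ileum of each pig, 3 dissections gave 1 library each. PP ileum carried Peyer's patches, non-PP ileum had none, and whole ileum was cut across the entire gut tube. Peripheral blood mononuclear cells (PBMCs) of the same pigs gave 2 more. Ileal suspensions pooled epithelium, lamina propria and submucosa and were enriched for live lymphocytes, so shares of cells describe the suspensions. Each dissection was represented by 1 library a pig.

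CD4 T cells recognise peptides on MHC class II molecules and help other cells through secreted cytokines and surface ligands. After activation they raise co-receptors such as ICOS, CTLA4 and TNFRSF18 (GITR), leave the circulation and lose the CCR7, LEF1 and S1PR1 transcripts that go with naive cells and with exit from tissue. In Peyer's patches, CD4 cells with high PD-1 include the follicular helper cells that support germinal centre B cells, whereas CD4 cells of the lamina propria are known for effector, resident and IL10-producing states. The genes are given below by role: co-receptors, cytokines, transcription factors, homing receptors and effector molecules.

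From PP pig 1, PP pig 2, non-PP pig 1, non-PP pig 2, whole ileum pig 1 and whole ileum pig 2, the gate kept 38, 33, 27, 39, 44 and 40 cells. All series of 6 values below follow this order of libraries. The same gate kept 34 and 44 cells in the PBMC libraries of pigs 1 and 2. Total UMIs per library ran from 21134542 (non-PP pig 2) to 40111934 (PP pig 1). The 221 cells held 541433 UMIs, a mean of 2450 per cell (range 1256 to 16372), and the blood cells held a mean of 3137. Levels are given as CPM, which divide a gene's UMIs by all UMIs of the summed cells of a library (times 1e6).

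The library labelled whole ileum pig 1 went against its label. Its cells held Y-linked transcripts at 205 CPM, beside 0.176, 0.157 and 0 CPM in the other libraries of the female pig and 116 to 225 CPM in the 4 libraries of the male. Calls of genes were therefore also made without this library, and losses are given where stated. Levels, ratios to empty droplets, thinned shares and divisions of the cells include it. A pair of cells stood far above the others in size. One of 16372 UMIs in non-PP pig 2 carried 994 UMIs of SPAI-2, and one of 15967 UMIs in non-PP pig 1 carried 2726 of all 2967 UMIs of FABP6, the ileal bile acid-binding protein of enterocytes. No doublet caller was run. Barcodes shared by a pair of libraries made up at most 1.23% of the smaller one.

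The gate turned on few molecules. Of 16117 filtered ileal barcodes with CD3E, 1034 carried CD4, 952 of these lacked CD8B and TRDC, 575 of these lacked CCR7, LEF1 and S1PR1, 443 passed the other conditions before PDCD1 was read, and they split into 221 without and 222 with PDCD1. Just inside the CD4 condition lay 185 cells with a single CD4 UMI, with 29 at 2 UMIs and 7 at 3 or more. Just outside the PDCD1 condition lay 99 cells with exactly 1 PDCD1 UMI. Just below the UMI minimum, 50 barcodes met every condition on genes. Without its CD4 condition the gate held 4193 ileal cells, of which 5.27% carried CD4. In ileal T cells that should lack CD4 the share was 0.685% (19 of 2775, exact binomial 95% interval 0.413 to 1.07) with CD8B and 1.32% (60 of 4534, interval 1.01 to 1.70) with TRDC, the γδ T cell receptor gene. At those shares, 28.7 or 55.5 of the 221 cells (13.0% or 25.1%) would carry CD4 as background. Empty droplets (barcodes of 10 to 100 UMIs) of the same libraries held 1.54 to 13.1 CPM of CD4. In the cells CD4 stood at 489, 515, 416, 422, 476 and 631 CPM. The rule required CD4, so this level was set by the rule and is no test of the gate.

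T cell identity genes outside the rule were detected in the cells, though not all lay above empty droplets. All 11 genes of a T cell identity list that the rule did not use (CD3D, CD3G, CD247, CD2, CD5, CD6, CD28, LCK, ZAP70, LAT and TRAT1) were detected in every library, with a summed level of 3584 CPM (non-PP pig 1) to 5393 CPM (PP pig 1). CD28, the main costimulatory receptor of T cells, stood at 167, 149, 107, 86.4, 139.9 and 163 CPM, with 5.92 to 21.3 CPM in empty droplets. CD2, CD5 and CD6 also lay above empty droplets in each library. CD3G stood at 604 and 796 CPM in non-PP pigs 1 and 2, below empty droplets (1059 and 1758 CPM), and above them in the other libraries. CD247 exceeded empty droplets in PP pig 1 alone and stood at 307 against 939 CPM in non-PP pig 2. Epithelial genes were detected for 11 of 12, with APOA4 at 0 throughout. They summed to 406, 108, 41925, 988, 233 and 117 CPM, and FABP6 led in each library, with 38327 CPM in non-PP pig 1. B cell genes were detected for 10 of 11, led by CD74 in each library, with EBF1 at 0 in all and CD79A at 0 in 5 of 6 libraries. Myeloid genes were detected for 11 of 13, led by FCGR3A in each library, with CSF1R and FLT3 at 0 in all. Antibody-secreting cell genes were detected for 9 of 10, with TNFRSF17 at 0 in all, led by JCHAIN in both PP libraries and by XBP1 in the other 4. CD8 and γδ T cell genes were detected for 5 of 5, led by NKG7, with a UMI in 106 cells. Innate lymphoid cell genes were detected for 7 of 9, led by ID2, with a UMI in 163 cells and with KLRF1 and NCR1 at 0.

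As a share of CD3E-positive barcodes, the cells made up 1.37%, 1.37%, 0.793%, 1.499%, 1.58% and 1.86% of the ileal libraries and 0.988% and 1.45% of the PBMC libraries. PP and non-PP overlapped, at a mean of 1.37% ± 0.0041 (SD, n = 2) against 1.15% ± 0.499 (SD, n = 2). The difference of 0.224 percentage points had an exact permutation p = 1, where the smallest p that 2 against 2 allows is 0.333. Ileum and blood also overlapped, at 1.41% ± 0.354 (SD, n = 6) against 1.22% ± 0.330 (SD, n = 2), with an exact two-sided permutation p = 0.571. The difference between PP and non-PP turned in direction over all filtered barcodes and without non-PP replicate 1, and that between ileum and blood did so in cells of 2000 or more UMIs and without PBMC replicate 1. Without the library labelled whole ileum pig 1, ileum and blood differed by 0.158 percentage points. PDCD1-positive cells of the same gate numbered 79, 52, 6, 21, 41 and 23, so the cells without PDCD1 outnumbered them in both non-PP libraries and were outnumbered in both PP libraries. PDCD1 was used by the rule, so this is a description without a test.

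**Figure D1:**
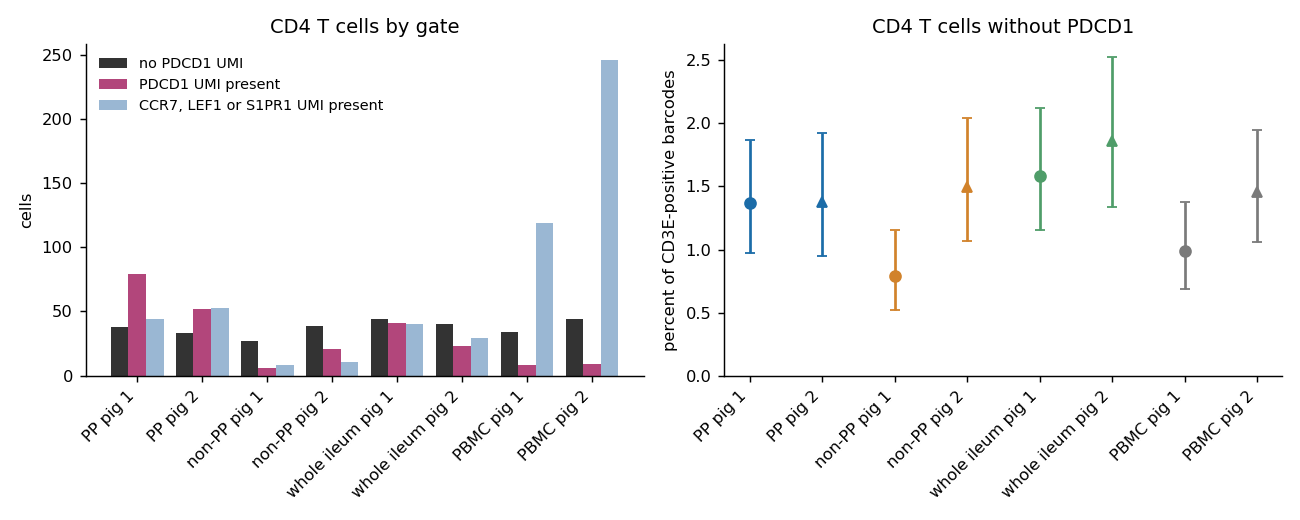
Left, numbers of CD4 T cells per library (y axis) in 3 gates: without PDCD1, with PDCD1, and with a UMI of CCR7, LEF1 or S1PR1 (the naive gate). Right, percent of CD3E-positive barcodes per library that were CD4 T cells without PDCD1, with exact binomial 95% intervals that cover counting error alone. The 6 ileal libraries lay between 0.793% and 1.86% and the 2 PBMC libraries at 0.988% and 1.45%.

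Co-receptors of activated T cells stood above the level of empty droplets in each of the 6 ileal libraries. CTLA4, an inhibitory receptor that competes with CD28 for its ligands, stood at 219, 258, 201, 57.6, 159 and 257 CPM, pooled 9.85 times the level of empty droplets. It was lowest in non-PP pig 2. ICOS, a costimulatory receptor that supports helper function, stood at 292, 244, 121, 95.9, 168 and 187 CPM, 5.02 times the empty droplets. Both PP libraries were above the other 4. TNFRSF18, a receptor of the TNF receptor family carried by activated and regulatory T cells, stood at 354, 434, 215, 288, 279.7 and 350.3 CPM (2.86 times the empty droplets). LAG3, a further inhibitory receptor that binds MHC class II, stood at 281, 474, 188, 115, 279.7 and 420.4 CPM (10.1 times). CD40LG, the ligand through which CD4 T cells activate B cells and antigen-presenting cells, stood at 115, 217, 67.1, 326, 298 and 362 CPM (15.5 times) and was low in non-PP pig 1 and in PP pig 1. SLAMF1, a self-binding receptor of activated lymphocytes, stood at 146, 81.3, 175, 125, 168 and 234 CPM (10.4 times).

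Each cell was then thinned to an equal depth of 1250 UMIs. At this depth, the shares of cells with a UMI of CTLA4, CD40LG and ICOS were higher than in CD8B T cells. CTLA4 was found in 22.2% of the 221 cells, 25.7% of PDCD1-positive cells, 2.75% of CD8B T cells and 0.226% of B cells, which should lack it. Before thinning it was found in 29.4% of the cells. CD40LG was found in 20.4%, 27.5%, 0.792% and 0.164% of the same classes, and 34.8% of the cells before thinning. ICOS was found in 21.3%, 28.8%, 3.43% and 0.527% (32.1% before thinning). The CD8B T cells held a mean of 2910 UMIs per cell and the B cells 4027 before thinning. TNFRSF4 (OX40) and IL2RA, which mark recent activation and regulatory T cells, were found in 4.07% and 3.62% of the cells after thinning.

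Of the helper cytokines IL10, IFNG, IL22, IL21, IL17A and IL4, IL10 was found in the most cells. IL10, which restrains inflammatory responses, stood at 354, 393, 295, 288, 345 and 292 CPM, with both PP libraries above both non-PP libraries, pooled at 6.98 times the empty droplets. It was found in 66 cells, which were 6, 12, 10, 15, 13 and 10 of the cells of the 6 libraries. After thinning the share was 22.6%, beside 16.2% in PDCD1-positive cells, 5.39% in CD8B T cells and 3.03% in B cells. IFNG, the type 1 effector cytokine, was found in 36 cells and stood at 292, 40.7, 134, 182, 177 and 199 CPM, lowest in PP pig 2. IL22, which acts on epithelium, was found in 20 cells, none of them in PP pig 2, and stood at 219, 0, 53.7, 48, 364 and 128 CPM. Empty droplets held 25.3 to 173 CPM of IL22 and 57.7 to 156 CPM of IFNG, and their pooled levels in the cells were 1.66 and 1.7 times those of the empty droplets. IL21, a helper cytokine for B cells, was found in 7 cells, IL17A in 1 and IL4 in 1.

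Transcription factors that define helper lineages were found in few cells. FOXP3, the factor of regulatory T cells, was found in 7 of 221 cells, TBX21 of type 1 cells in 12, GATA3 of type 2 cells in 32 and BCL6 of follicular helper cells in 22. No library had 10 cells with a UMI of FOXP3, TBX21 or GATA3, so cells with and without them were not compared. MAF, a factor that supports IL10 transcription, was more widely found. It stood at 146, 122, 228, 201, 139.9 and 117 CPM, 8.36 times the empty droplets, and in 19.9% of thinned cells, beside 1.43% of CD8B T cells. CD8A, whose product pig CD4 T cells can carry without CD8B, was found in 31 cells (at most 7 in a library, so likewise not compared), 6.79% after thinning against 16.7% of PDCD1-positive cells and 67.7% of CD8B T cells.

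Genes of homing and residence ranged from wide detection to none. CCR6, CCR10, CCR2, ITGA1 and ZNF683 were found in 0 cells and GPR15 in 1. GPR183, the receptor that guides lymphocytes along oxysterols, stood at 510.1, 596, 429.6, 739, 476 and 549 CPM, 8.63 times the empty droplets, and in 45.7% of thinned cells, beside 23% with PDCD1, 34.6% in the naive gate, 8.87% of CD8B T cells and 8.61% of B cells. CCR9, the receptor for the small intestinal chemokine CCL25, stood at 93.7, 40.7, 148, 192, 159 and 199 CPM (4.51 times) and was lowest in both PP libraries. It was found in 17.2% of thinned cells and in 4.95% with PDCD1. Outside this group, IL7R, the receptor for the survival cytokine IL7, stood at 135, 67.8, 80.5, 211, 205 and 222 CPM (9.79 times). RGS1, a regulator of chemokine receptor signalling abundant in tissue T cells, stood at 1270.1, 1044, 805, 844, 1203 and 946 CPM but at 0.944 times the empty droplets, above them in 3 of 6 libraries. ITGAE, the integrin chain that binds E-cadherin on epithelium, was found in 7.69% of thinned cells and in 34.5% of CD8B T cells.

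GNLY, GZMB, CCL5 and NKG7, genes of cytotoxic cells, were widely detected but lay below empty droplets in every ileal library. GNLY (granulysin) stood at 93.7, 136, 1517, 873, 4056 and 175 CPM against 2098 to 26274 CPM in empty droplets, 0.118 times their pooled level. The corresponding pooled values were 0.15 for GZMB (granzyme B), 0.181 for the chemokine CCL5 and 0.367 for NKG7, a protein of cytotoxic granules. GNLY was found in 103 cells and GZMB in 117. Reads of GZMA were split over 2 gene models, both also below empty droplets, and are uncertain for that reason. FCGR3A (CD16), an Fc receptor best known from natural killer and myeloid cells, differed from these genes. It stood at 2061, 1776, 4162, 4174, 3021 and 3036 CPM, 4.42 times the empty droplets and above them in 6 of 6 libraries. Its share after thinning was 71.9% in the cells, 85.5% in CD8B T cells, 45.3% in TRDC T cells, 33.3% with PDCD1 and 3.54% in B cells.

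**Figure D2:**
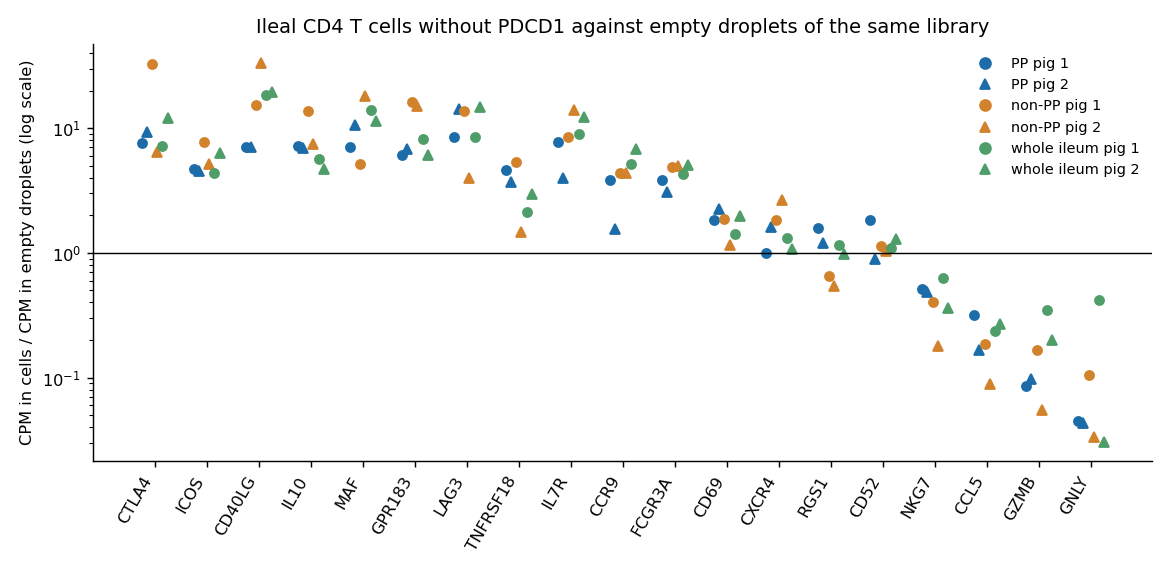
Ratio of CPM in the ileal CD4 T cells without PDCD1 to CPM in empty droplets of the same library (y axis, log scale) for 19 genes (x axis), 1 symbol per library. The genes plotted from CTLA4 to FCGR3A lay above the line of equal level in all 6 libraries, RGS1 and CD52 lay on both sides of it, and NKG7, CCL5, GZMB and GNLY lay below it in all 6.

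The cells varied among themselves. When genes were ranked within libraries by how far their Pearson residuals spread, those with a symbol at the top were CCL5, IFI6, FCGR3A, TMSB4X, CD52 and FABP6. For FABP6 and for SPAI-2, found in 12 cells, a single cell carried most UMIs. IL10 ranked 22, with up to 16 UMIs in a cell. The cells were also divided by a UMI of single genes that were chosen with their values known, so the shares that follow are descriptions without a test.

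IL10-positive cells (66) carried more co-receptor transcripts than IL10-negative cells (155). CTLA4 was found in 51.5% (34 of 66) against 20% (31 of 155), and its CPM was higher in IL10-positive cells in 6 of 6 libraries. TNFRSF18 was found in 57.6% (38 of 66) against 34.2% (53 of 155), also higher in 6 of 6 libraries, and LAG3 in 42.4% (28 of 66) against 21.9% (34 of 155), higher in 5 of 6. PRDM1, the gene of Blimp-1, a repressor that goes with effector differentiation and IL10, was found in 24.2% (16 of 66) against 6.45% (10 of 155), higher in 6 of 6. LTB, TCF7 and SH2D1A had the opposite distribution. LTB, which encodes a subunit of the membrane lymphotoxin, was found in 9.09% (6 of 66) against 32.9% (51 of 155) and was higher in IL10-positive cells in 0 of 6 libraries. TCF7, a factor of naive and memory T cells, was found in 10.6% (7 of 66) against 29% (45 of 155), and SH2D1A in 9.09% (6 of 66) against 27.7% (43 of 155). Median UMIs were 1984 with and 2156 without IL10, so the IL10-positive cells were not the deeper ones. CD40LG was found in 33.3% (22 of 66) against 35.5% (55 of 155).

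CTLA4-positive cells (65) overlapped these. TNFRSF18 was found in 69.2% (45 of 65) against 29.5% (46 of 156), IL10 in 52.3% (34 of 65) against 20.5% (32 of 156), ICOS in 52.3% (34 of 65) against 23.7% (37 of 156) and LAG3 in 46.2% (30 of 65) against 20.5% (32 of 156), each with a higher CPM in CTLA4-positive cells in 6 of 6 libraries. IL7R went the other way, at 12.3% (8 of 65) against 32.1% (50 of 156), and so did TRAT1, an adaptor that stabilises the T cell receptor, at 35.4% (23 of 65) against 57.1% (89 of 156). Both were higher in CTLA4-positive cells in 0 of 6 libraries. FOXP3 was found in 4.62% (3 of 65) against 2.56% (4 of 156). CD40LG divided the cells differently. IFNG was found in 24.7% (19 of 77) against 11.8% (17 of 144) of CD40LG-positive and CD40LG-negative cells, higher in 6 of 6 libraries, and IL7R in 35.1% (27 of 77) against 21.5% (31 of 144), whereas LAG3 was found in 20.8% (16 of 77) against 31.9% (46 of 144). CD40LG-positive cells came unevenly from the libraries (7, 9, 3, 25, 15 and 18) and were deeper, at median UMIs of 2243 against 1930, and all these shares are unthinned. In the 58 CCR9-positive cells, CXCR3, a receptor for interferon-induced chemokines, was found in 32.8% (19 of 58) against 11.7% (19 of 163) and RUNX3, a factor of cytotoxic and tissue T cells, in 24.1% (14 of 58) against 7.36% (12 of 163). In the 20 IL22-positive cells (median UMIs 2372 against 2023 in the rest) RORA, a type 17 factor, was found in 45% (9 of 20) against 20.9% (42 of 201). All of these divisions rest on cells of 6 libraries from 2 pigs.

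**Figure D3:**
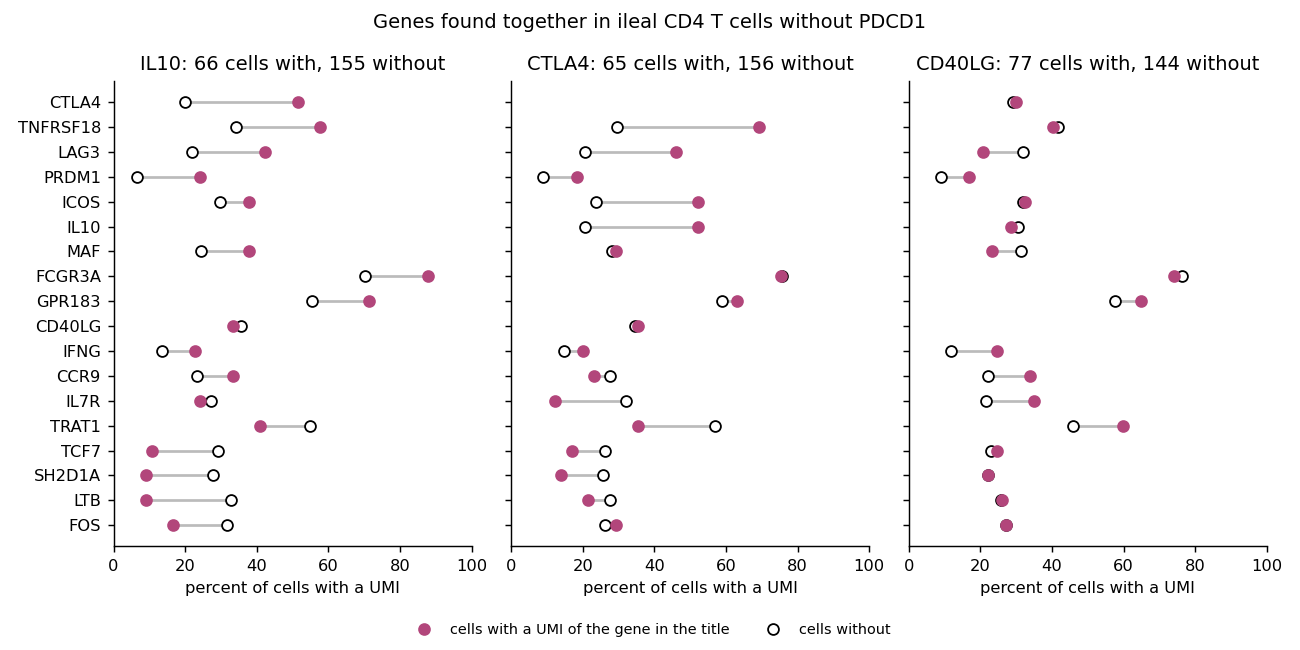
Percent of ileal CD4 T cells without PDCD1 with a UMI of the gene named on the y axis (x axis, unthinned), for cells with (filled) and without (open) a UMI of IL10, CTLA4 or CD40LG. CTLA4, TNFRSF18, LAG3 and PRDM1 were found more often with IL10 and LTB, SH2D1A and TCF7 less often. IFNG was found more often with CD40LG.

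The cells of 2 or more CD4 UMIs (36) and of a single one (185) are described side by side, pooled over libraries and without a test. CTLA4 was found in 33.3% and 28.6%, ICOS in 44.4% and 29.7%, IL10 in 36.1% and 28.6% and LAG3 in 44.4% and 24.9%. CD69 went the other way, at 33.3% and 44.9%. GNLY was found in 30.6% and 49.7%, GZMB in 47.2% and 54.1% and NKG7 in 30.6% and 33.5%. GZMA was found in 55.6% and 56.8%, CCL5 in 72.2% and 70.3% and CST7 in 63.9% and 49.7%. The genes of cytotoxic cells thus did not all go one way. Median UMIs were 1897 and 2156.

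PP and non-PP cells were compared to ask whether the same gated cells differ with the presence of Peyer's patches. FCGR3A was lower in PP. It stood at 2061 and 1776 CPM in the PP libraries and at 4162 and 4174 CPM in the non-PP libraries, so the groups did not overlap (log2 fold change -1.23, SE 0.16, adjusted p = 0.0217 by edgeR's quasi-likelihood test with Benjamini-Hochberg adjustment over all genes). Empty droplets held 558 and 850.0 CPM of it in PP and non-PP. Its call was lost without PP replicate 2, without whole ileum replicate 2, in cells of 2000 or more UMIs and in cells with 2 or more CD4 UMIs, and it was kept without the library labelled whole ileum pig 1. The myeloid list as a whole summed to 2353 and 1803 CPM in PP and to 4457 and 5805 CPM in non-PP, and was mostly FCGR3A. C1QA and C1QB were at 0 in both PP libraries and in non-PP pig 1. They stood at 307 and 182 CPM in non-PP pig 2, where C1QA was found in 1 cell. The part of myeloid RNA in the result was not tested. In the gate without its CD4 condition, 7.50% and 7.21% of cells carried CD4 in PP and 2.17% and 4.47% in non-PP. Of CD8B T cells, 0.862% and 1.16% did so in PP and 0.450% and 0.377% in non-PP. Of TRDC T cells, 1.86% and 1.57% did so in PP and 0.673% and 0.888% in non-PP. The part of background CD4 in the result was not tested. Over 1345 genes, 0 were called higher (0.0%) and 2 lower (0.149%) in PP. The other, LGALS2, a galectin of enterocytes, was named after its value was seen. It stood at 20.8 and 27.1 CPM in PP and at 1208 and 403 CPM in non-PP (log2 fold change -5.10, SE 0.72, adjusted p = 0.0246), with empty droplets at 469 and 805 CPM. In non-PP pig 1, the single cell rich in FABP6 carried 86 of its UMIs, nearly all in that library. Without the 5% of cells with the most UMIs, LGALS2 was too low to be tested, and its call was lost without either PP replicate.

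No other listed gene passed the test between PP and non-PP. Helper activation genes were called in 0 of 9 tested, with a median log2 fold change of 0.32 beside -0.02 over all genes. Regulatory T genes were called in 0 of 8 (median 0.38), cytotoxic genes in 0 of 8 (median -1.17) and interferon-stimulated genes in 0 of 10 (median -0.36). At an unadjusted p under 0.05, 139 genes differed, and DESeq2 called 6. With the pig number as a block, which pairs PP and non-PP of a pig, edgeR called 14 genes, 4 higher and 10 lower. With this block and without the library labelled whole ileum pig 1, an alternative chosen after seeing the data, it called 84 genes, 21 higher and 63 lower.

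The same gate in ileum and blood gave a large difference. In the ileum the cells were higher in NR4A2, CD69, IL10, LAG3 and CTLA4, among others, and lower in CX3CR1, KLRG1, KLF2 and S100A4. Of 1664 genes tested, 136 were higher (8.17%) and 141 lower (8.47%) in ileum, 16.6% in all. Ileal cells went through tissue dissociation and blood cells did not, and the empty droplets of ileum and blood differed as well, so tissue and handling cannot be told apart.

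Of 16 tissue residence genes listed, 4 were high enough to be tested and all 4 were called higher (NR4A2, CD69, DUSP4 and RGS1). NR4A2, a nuclear receptor induced by T cell receptor signals, stood at 156, 285, 215, 192, 270.4 and 81.7 CPM in the ileum and at 0 in both blood libraries, at least 16.3-fold higher when 3 UMIs over both blood libraries are taken as the floor (adjusted p = 0.00162). CD69, which retains lymphocytes in tissue by opposing S1PR1, stood at 531, 691, 255, 249, 448 and 455 CPM in the ileum and 0 and 48.6 in blood (log2 fold change 3.83, SE 0.51, adjusted p = 0.000495). RGS1 stood at 1270.1, 1044, 805, 844, 1203 and 946 CPM in ileum and 89.4 and 111 in blood (log2 fold change 3.32, SE 0.27, adjusted p = 3.30e-05). Ileal empty droplets held RGS1 at 1089 CPM and those of blood at 53.8 CPM, and the part of surrounding RNA in the difference was not tested.

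Regulatory T genes were called higher in 6 of 9 (IL10, LAG3, TNFRSF18, CTLA4, MAF and TNFRSF1B) and lower in 2 (GZMB and BATF), with a median log2 fold change of 2.42 beside -0.01 over all genes. IL10 stood at 39.8 and 20.8 CPM in blood, below all 6 ileal libraries (log2 fold change 3.46, SE 0.34, adjusted p = 7.95e-05). LAG3 stood at 29.8 and 41.6 CPM in blood (log2 fold change 2.84, SE 0.43, adjusted p = 0.00124), TNFRSF18 at 19.9 and 76.4 (log2 fold change 2.58, SE 0.38, adjusted p = 0.00115) and CTLA4 at 0 and 55.5 (log2 fold change 2.46, SE 0.67, adjusted p = 0.0294). The call of CTLA4 was lost without whole ileum replicate 2, without PBMC replicate 1 and in cells of 2000 or more UMIs, and that of ICOS without PBMC replicate 2, in cells of 2000 or more UMIs and by DESeq2. In cells with 2 or more CD4 UMIs, 19 of the 66 listed or named genes called were high enough to be tested and 12 were called. CTLA4, ICOS, LAG3, TNFRSF18, MAF, CD69, NR4A2, CXCR4, CX3CR1, KLRG1 and KLF2 were not among these 12. Helper activation genes were called higher in 4 of 9 (CTLA4, TNFRSF18, CD69 and ICOS). CD40LG stood at 79.5 and 174 CPM in blood and did not pass the test (log2 fold change 0.76, SE 0.47, adjusted p = 0.315). T cell identity genes were called higher in 3 of 11 (CD28, CD3D and CD5), with CD28 at 9.94 and 27.8 CPM in blood (log2 fold change 2.64, SE 0.47, adjusted p = 0.00311). The call of CD5 was not kept by DESeq2, without a filter on low counts or in cells of 2000 or more UMIs. It was also lost without either PBMC replicate, and that of CD3D without PBMC replicate 1.

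Homing genes went both ways, with 2 of 6 higher and 2 lower. GPR183 stood at 39.8 and 76.4 CPM in blood (log2 fold change 3.18, SE 0.35, adjusted p = 0.000182). CXCR4, the receptor for CXCL12, stood at 364, 664, 215, 374, 373 and 444 CPM in ileum and 0 and 6.94 in blood (log2 fold change 6.23, SE 0.63, adjusted p = 9.27e-05). Empty droplets held it at 118 to 415 CPM in ileum, above the cells in PP pig 1, and at 24.3 to 27.2 CPM in blood. The integrin chains ITGA4 and ITGB7, which together form the gut homing integrin, were lower in ileum (log2 fold changes -1.40 and -1.32). Both calls were lost by DESeq2. That of ITGA4 was also lost without either PBMC replicate, and that of ITGB7 without PBMC replicate 2 or whole ileum replicate 2. CCR9 was not among the called genes, at 0 and 90.2 CPM in blood. Of type 17 genes, 2 of 4 were higher, MAF and IL22. The call of IL22 was not kept by DESeq2 or in cells of 2000 or more UMIs. It was also lost without PP replicate 1, without whole ileum replicate 2 and without either PBMC replicate. IL22 had no UMI in blood or in PP pig 2, and its call was lost without the library labelled whole ileum pig 1, as were those of IFNG, ID2, ISG20, ITGB7, XBP1, JCHAIN and FABP6. The other 58 of the 66 listed or named genes called were kept without that library, and all 66 were kept without it when the pig was a block.

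By a fixed rule on size, the genes named on the ileal side included CXCR4 and NR4A2 above and the following. CREM, a cAMP-responsive transcriptional regulator, stood at 885, 1125, 1034, 1276, 811 and 1156 CPM in ileum and 29.8 and 69.4 in blood (log2 fold change 4.31, SE 0.35, adjusted p = 3.30e-05). LGMN, a lysosomal protease, stood at 344, 515, 416, 288, 289 and 560.5 CPM and 0 and 20.8 (log2 fold change 4.90, SE 0.61, adjusted p = 0.000318). NFKBIZ, an atypical inhibitor of NF-κB, PPP1R15A, a regulator of the stress response, IFNGR1, a chain of the interferon gamma receptor, and PCED1B had log2 fold changes of 5.58, 4.25, 4.12 and 3.96. RAB12, a small GTPase, and FURIN, a proprotein convertase, were at 0 in blood and at least 6.03-fold and 5.72-fold higher in ileum against the same floor. Neither call was kept in cells of 2000 or more UMIs or without non-PP replicate 2, whole ileum replicate 2 or either PBMC replicate. That of FURIN was also not kept without the 5% of cells with the most UMIs or without cells carrying CD79A, MS4A1, EPCAM or C1QA. Immediate early genes were higher in 6 of 7 (median 2.20), among them FOS, JUN, DUSP1 and TNFAIP3. The call of FOS was lost without either PBMC replicate. FOS stood at 354, 474, 564, 28.8, 382 and 374 CPM in ileal cells and at 240.5 to 1007 CPM in ileal empty droplets, which exceeded the cells in PP pig 1, non-PP pig 1 and non-PP pig 2. Empty droplets of blood held 49 to 85.8 CPM of FOS, and the part of surrounding RNA in the difference was not tested.

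The genes named by the same rule as lower in ileum began with CX3CR1, KLRG1, S100A4 and KLF2. CX3CR1, the fractalkine receptor of circulating effector cells, stood at 0, 13.6, 0, 0, 28 and 0 CPM in ileum and 388 and 222 in blood (log2 fold change -5.82, SE 0.67, adjusted p = 0.000318). KLRG1, an inhibitory receptor of late effector cells, stood at 52.1, 13.6, 0, 0, 9.32 and 0 and 368 and 305 (log2 fold change -5.66, SE 0.52, adjusted p = 9.20e-05). KLF2, the factor that drives S1PR1 and recirculation, stood at 52.1, 27.1, 0, 0, 74.6 and 11.7 and 497 and 486 (log2 fold change -5.18, SE 0.46, adjusted p = 7.89e-05). S100A4, a calcium-binding protein of motile cells, stood at 31.2, 108, 0, 67.2, 55.9 and 70.1 and 2534 and 1812 (log2 fold change -5.27, SE 0.38, adjusted p = 3.30e-05). For each of these 4 genes, blood was above the highest ileal library. S100A6, S100A11, MYADM, RASA3, ADD3 and the integrin chain ITGB1 were lower in ileum by the same rule, at log2 fold changes between -4.50 and -2.79. The call of RASA3 was not kept without either PBMC replicate or in cells of 2000 or more UMIs, and that of ADD3 was lost without PBMC replicate 1. Cytotoxic genes were called lower in 5 of 11 and higher in 1. The 2 GZMA gene models went opposite ways (log2 fold changes 3.48 and -1.16). GNLY (log2 fold change -3.89), NKG7 (-2.36) and CCL5 (-2.09) were among the lower ones. GNLY stood at 16497 and 3811 CPM in blood, far apart between the pigs, and the calls of GNLY, CCL5, GZMB and CD8A were lost without PBMC replicate 1. In blood, CCL5 stood higher in empty droplets (19984 and 8414 CPM) than in the cells of both libraries (14867 and 6136 CPM), and GNLY did in PBMC pig 2 (8349 against 3811 CPM). The CD8 and γδ T cell list was lower in 2 of 4 tested (CD8A and NKG7, median -1.65). CD8A stood at 52.1, 54.2, 94, 67.2, 55.9 and 81.7 CPM in ileum and 248 and 174 in blood (log2 fold change -1.62, SE 0.32, adjusted p = 0.0049). At the CD4 shares of CD8B and TRDC T cells in blood, 29.0% or 32.2% of the 78 blood cells would carry CD4 as background, and the part of such cells in these differences was not tested. Interferon-stimulated genes were lower in 4 of 13 (GBP1, IFIT1, ISG20 and RSAD2). All 4 calls were lost by DESeq2 and also without PBMC replicate 2. Without PBMC replicate 1 or PBMC replicate 2, 104 and 145 genes were called in place of 277.

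**Figure D4:**
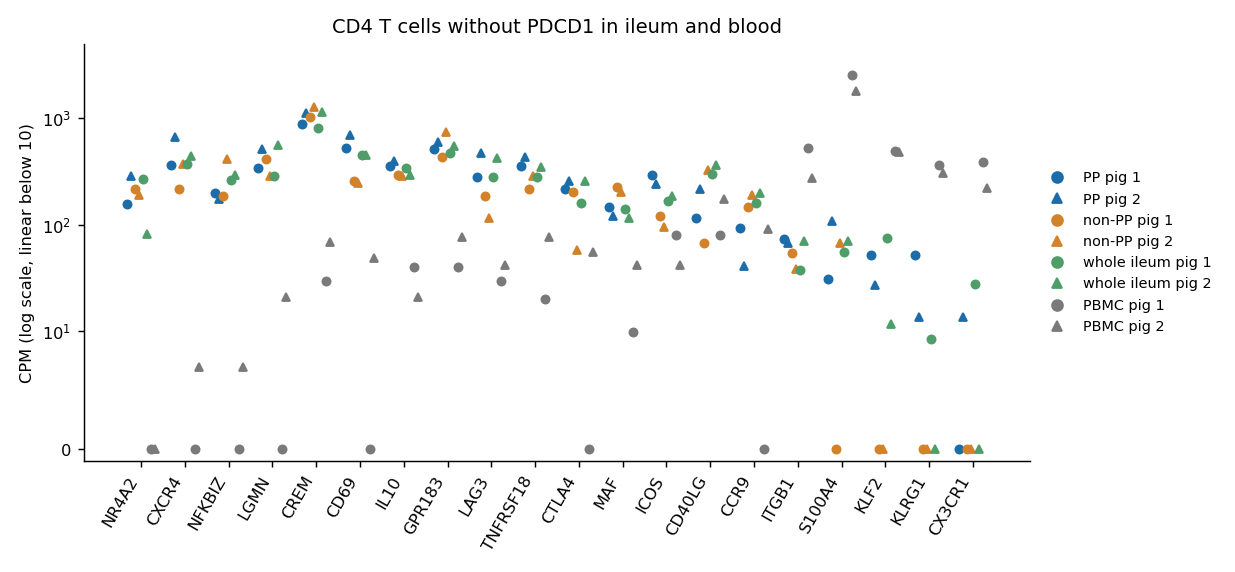
CPM (y axis, log scale, linear below 10) of 20 genes (x axis) in CD4 T cells without PDCD1, 1 symbol per library, with ileal libraries in colour and PBMC libraries in grey. Genes from NR4A2 to ICOS lay higher in all ileal libraries than in blood, CD40LG and CCR9 overlapped, and ITGB1, S100A4, KLF2, KLRG1 and CX3CR1 lay higher in both PBMC libraries.

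Cells without PDCD1 were compared with PDCD1-positive cells of the same gate and library to ask which other genes differ between them. Non-PP pig 1 had 6 PDCD1-positive cells, under the minimum of 10, and was left out, so 5 libraries and their pairs were tested. The 2 classes had similar depth, at means of 2450 and 2486 UMIs per cell. Of 1170 genes, 29 were higher (2.48%) and 19 lower (1.62%) without PDCD1, 4.1% in all, PDCD1 itself among the lower ones. Values of 5 libraries follow the order above without non-PP pig 1. This comparison and that with the naive gate below share the counts of the cells without PDCD1.

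Follicular helper genes were called lower in 3 of 7 tested without PDCD1 (SH2D1A, TOX and LTB), with a median log2 fold change of -0.75 beside -0.04 over all genes. SH2D1A encodes SAP, the adaptor that helper cells need for stable contact with B cells. It stood at 167, 189.8, 38.4, 93.2 and 117 CPM without and 497, 529, 98.5, 478 and 282 CPM with PDCD1, lower in 5 of 5 libraries (log2 fold change -1.59, SE 0.22, adjusted p = 0.000116). LTB stood at 312, 718, 9.59, 308 and 187 and 797, 1261, 19.7, 1013 and 403 (log2 fold change -1.18, SE 0.20, adjusted p = 0.000571), and empty droplets held it at 400.2 CPM. TOX, a factor of chronically stimulated and follicular helper cells, stood at 104, 94.9, 67.2, 74.6 and 81.7 and 263, 257, 118, 262 and 141 (log2 fold change -1.25, SE 0.28, adjusted p = 0.0103). Its call was lost without the library labelled whole ileum pig 1. CXCR5, the receptor that leads cells to follicles, was too low to be tested. It was found in 1.36% of thinned cells without and 10.4% with PDCD1. IL6R, GYPC, RAE1, RGCC, VMP1, SNRPB2 and TNFAIP8 were also lower, at log2 fold changes of -1.40 to -0.74. The calls of IL6R, RGCC, VMP1, SNRPB2, TNFAIP8 and TOX were not kept by DESeq2 or in cells of 2000 or more UMIs. Without a filter on low counts, those of IL6R, RGCC, SNRPB2 and TNFAIP8 were lost. IL6R and RGCC were also lost without either PP replicate and without either whole ileum replicate. Without PP replicate 1, the calls of RAE1, VMP1, SNRPB2 and TNFAIP8 were lost as well.

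IL7R, CD52, GBP1 and IFITM3 were among the genes higher without PDCD1. CD74, the 1 gene of the B cell list that could be tested, was also higher, at 947, 854, 1094, 1044 and 502 CPM without and 596, 475, 532, 501 and 585 CPM with PDCD1 (log2 fold change 0.77, SE 0.19, adjusted p = 0.0188), in 4 of 5 libraries. Ileal empty droplets held CD74 at 674 to 3512 CPM. Its call was lost without cells carrying CD79A, MS4A1, EPCAM or C1QA. It was also lost without either PP replicate and without the library labelled whole ileum pig 1. The part of B cell RNA was not tested. IL7R stood at 135, 67.8, 211, 205 and 222 CPM without and 42.2, 46.7, 158, 68.3 and 40.3 CPM with PDCD1, higher in 5 of 5 libraries (log2 fold change 1.34, SE 0.32, adjusted p = 0.0189). Its call was lost without the library labelled whole ileum pig 1, without whole ileum replicate 2 and without PP replicate 1. DESeq2 and the fit in cells of 2000 or more UMIs did not keep it either, and without non-PP replicate 2 it was not tested. CD52, a small surface glycoprotein of lymphocytes, stood at 2624, 1234, 2495, 2051 and 1798 and 502, 335, 1754, 433 and 1209 (log2 fold change 1.57, SE 0.22, adjusted p = 0.000116), with 1716 CPM in empty droplets. GBP1 and IFITM3, both induced by interferon, were higher in 5 of 5 libraries (log2 fold changes 1.28 and 0.85), and interferon-stimulated genes as a list were higher in 3 of 8 with a median of 0.19. Cytokine receptors were higher in 1 of 5 (IL7R) and lower in 1 (IL6R). FCGR3A was higher (log2 fold change 1.30, SE 0.21, adjusted p = 0.000422) in 4 of 5 libraries and stood at 4174 against 4513 CPM in non-PP pig 2. TRAT1 (which stood higher in empty droplets than in either class), PLAC8, TNFAIP3, TMSB4X and the ribosomal protein genes RPL10, RPLP0 and RPS2 were higher, at log2 fold changes from 0.38 to 1.15. The calls of these 3 ribosomal protein genes were lost with counts summed per pig. In cells of 2000 or more UMIs, they and those of PLAC8 and TNFAIP3 were not kept. That of TNFAIP3 was also lost by DESeq2 and without PP replicate 1. The call of IFI6, a further interferon-stimulated gene, was not kept by DESeq2, in cells of 2000 or more UMIs or without either PP replicate. The cytotoxic list was higher in 3 of 7 (CCL5, NKG7 and a GZMA gene model, median 1.01), all of which stood higher in empty droplets than in either class. Their part in the result was not tested.

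No co-receptor gene passed the test between the 2 classes. Helper activation genes were called in 0 of 7, with log2 fold changes of -0.63 for CTLA4 (SE 0.24), -0.34 for ICOS (SE 0.24), -0.18 for CD40LG (SE 0.21) and -0.73 for CD69 (SE 0.21). Regulatory T genes were called in 0 of 9, with IL10 at 0.21 (SE 0.25). A p above the threshold does not show that these genes were equal. The test rested on the pairing by library, since without that block 1 gene was called, PDCD1. Without the library labelled whole ileum pig 1, 20 genes were called, and 14 of the 27 listed or named genes were kept, or 22 of the 27, IL7R and TOX included, with counts summed per pig and the pig as a block. In the first of these fits, IL6R, RAE1, RGCC, VMP1, SNRPB2, IFI6, RPLP0, RPS2, NKG7 and a GZMA gene model were among the genes not kept. The difference between the classes itself differed between PP and non-PP for 7 genes (0.598%), larger in PP for 6 (0.513%) and smaller for 1 (0.0855%), with 1 non-PP library behind it, which is assumed to vary like the others. With 1 library the spread within non-PP was not measured, so effect sizes are given without p-values. FCGR3A was among the 6, at 2061 and 1776 CPM without against 450.2 and 514 CPM with PDCD1 in PP, and at 4174 against 4513 CPM in non-PP pig 2 (log2 fold change 2.12). That call was lost without PP replicate 1.

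**Figure D5:**
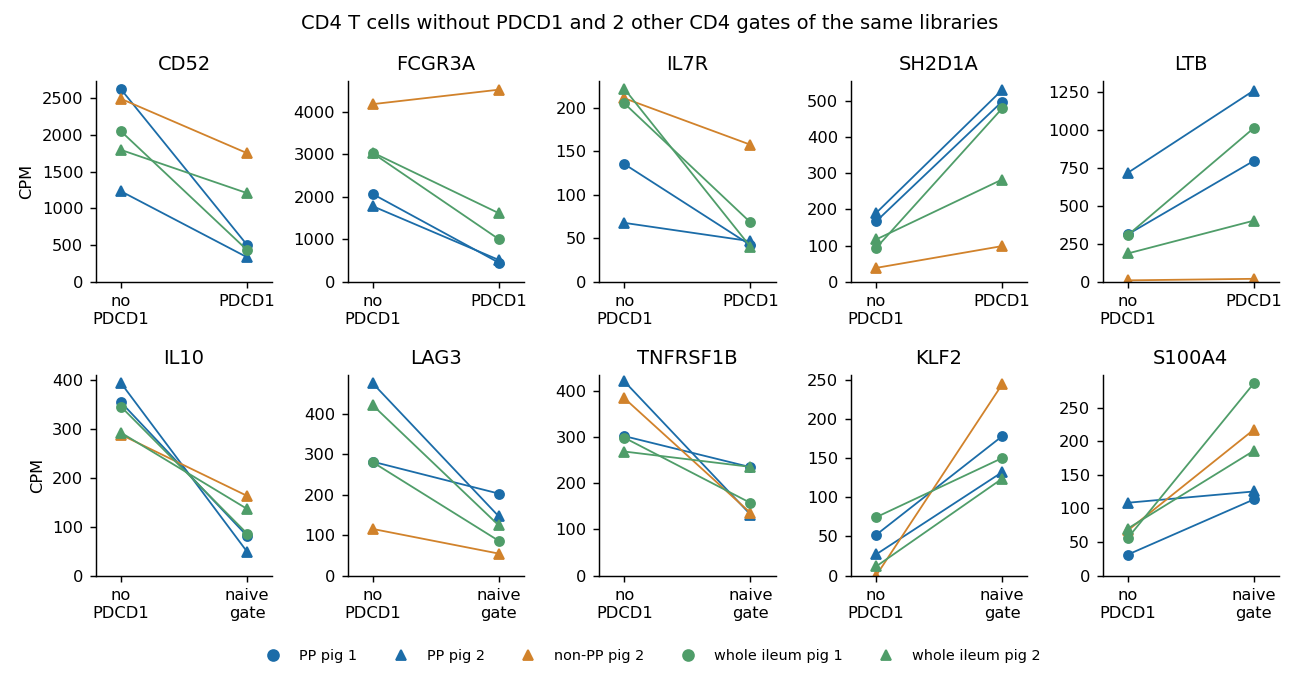
CPM (y axis, linear) per library in CD4 T cells without PDCD1 and, joined by lines, in PDCD1-positive cells (upper row) or naive gate cells (lower row) of the same library, for 5 libraries. CD52 and IL7R were higher and SH2D1A and LTB lower without PDCD1 in 5 of 5 libraries, and FCGR3A was higher in 4 of 5. IL10, LAG3 and TNFRSF1B were higher and KLF2 and S100A4 lower than in the naive gate in 5 of 5.

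The naive gate held cells with a UMI of CCR7, LEF1 or S1PR1 and otherwise the same conditions (185 ileal cells), and 5 libraries had 10 or more in both classes. Naive gate cells were deeper, at a mean of 2955 UMIs per cell. Against them, the cells without PDCD1 were higher in 43 of 1180 genes (3.64%) and lower in 58 (4.92%), 8.56% in all, the 3 genes of the gate among the lower ones. Regulatory T genes were called higher in 6 of 8 (IL10, LAG3, TNFRSF18, TNFRSF1B, BATF and GZMB) and lower in 0, with a median log2 fold change of 0.91 beside 0.05 over all genes. Without the library labelled whole ileum pig 1, IL10 and LAG3 were kept of these 6, and without the library block IL10 and TNFRSF1B were. IL10 stood at 354, 393, 288, 345 and 292 CPM against 81, 48.7, 163, 85.8 and 136 in the naive gate, higher in 5 of 5 libraries (log2 fold change 1.86, SE 0.26, adjusted p = 6.56e-05). LAG3 stood at 281, 474, 115, 279.7 and 420.4 against 202, 146, 54.3, 85.8 and 124 (log2 fold change 1.31, SE 0.23, adjusted p = 0.00102). TNFRSF1B, the second TNF receptor, and TNFRSF18 had log2 fold changes of 0.84 and 0.80. The calls of TNFRSF1B, TNFRSF18, BATF and GZMB were lost by DESeq2, which kept 13 of 38 listed or named genes. Without a filter on low counts, those of TNFRSF1B, TNFRSF18 and BATF were lost. Outside that list, IL2RB, a chain of the IL2 and IL15 receptors, and IKZF3 (Aiolos) had log2 fold changes of 0.89 and 1.26. RAE1, RAB35, SAMD9 and NFKBIZ were the other genes higher by the fixed rule. DESeq2 also lost the calls of IKZF3, IL2RB, RAB35, SAMD9 and NFKBIZ. The calls of IL2RB, SAMD9, BATF, CD2 and CD3D were lost with counts summed per pig and also without the library block.

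Lower than in the naive gate were KLF2, at 52.1, 27.1, 0, 74.6 and 11.7 CPM against 178, 132, 244, 150.2 and 124 (log2 fold change -2.15, SE 0.41, adjusted p = 0.00187), and S100A4, at 31.2, 108, 67.2, 55.9 and 70.1 against 113, 125, 217, 286 and 186 (log2 fold change -1.54, SE 0.31, adjusted p = 0.00246), both lower in 5 of 5 libraries. HCST, an adaptor of activating receptors, PLAC8 and FOS had log2 fold changes of -1.18, -0.86 and -0.63. DESeq2 and the fit without a filter on low counts did not keep the call of FOS. The translation factor gene EEF1B2 and the ribosome-associated genes NPM1, RACK1 and RPS2 fell by 0.54, 0.53, 0.45 and 0.48 on the log2 scale. Ribosomal protein genes, a list chosen after the values were seen, were lower in 28 of 57, with a median of -0.25. Cytotoxic genes were higher in 7 of 8, and GNLY, GZMB, CCL5, NKG7 and both GZMA gene models stood higher in empty droplets than in either class. CTLA4 (log2 fold change 1.12, SE 0.37, adjusted p = 0.06) and ICOS (log2 fold change 0.59, SE 0.25, adjusted p = 0.187) did not reach the threshold. Without the library labelled whole ileum pig 1, 43 genes were called and 15 of 38 listed or named genes were kept, among them IL10, LAG3 and KLF2 but not S100A4. Others not kept without this library included RAB35, SAMD9, NFKBIZ, IL2RB, NPM1, CST7, GNLY, GZMB, NKG7 and a GZMA gene model. With sums per pig and the pig as a block, 22 of 38 were kept without it, S100A4 included. Without the library block, 21 genes were called. In cells of 2000 or more UMIs, the calls of LAG3, KLF2, TNFRSF1B, TNFRSF18 and BATF were not kept. Without the 5% of cells with the most UMIs, those of KLF2 and S100A4 were not kept.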

How the data were processed

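Single-cell 3' libraries of ileum and blood were aligned and counted by the authors with Cell Ranger on Sscrofa 11.1 with a modified Ensembl annotation. The deposited files hold raw UMI counts per gene and barcode (25880 genes, 18721 named by a symbol), before the ambient RNA and doublet removal that the study applied later. Here barcodes were filtered and gated on these counts, no doublet caller was run, and each library was 1 replicate of its pig. Counts of gated cells were summed per library and class and tested with edgeR 4.0.16 (TMM, filterByExpr, quasi-likelihood test, Benjamini-Hochberg adjustment over all genes, threshold 0.05) in R 4.3.3. The library was a block between classes of the same libraries, which needed 10 cells in each. DESeq2 1.42.0 was an alternative. Shares were tested by exact permutation over libraries (scipy 1.17.1), with exact 95% binomial intervals that cover counting error only. The fits were also run on simulated data, and the outcome is not reported here. Genes named outside the lists were the 10 with the largest change in each direction that passed the test, had a symbol and a mean of at least 20 CPM in the higher group, went one way in every library pair (or in groups without overlap), and were no higher in empty droplets. The members and lists were chosen with earlier results of these data known. With 2 pigs, p-values measure the spread between libraries. Replicate numbers mark the pig, so the pig was a block in an alternative. Same-numbered libraries deviated together between PP and non-PP (r = 0.243), PP and PBMC (0.235) and non-PP and PBMC (0.285), but the whole ileum libraries did not (-0.0068, 0.0278 and -0.0327). Sequences were not analysed here, and 1 listed gene is not reported here.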

Additional observations from a re-analysis of the deposited data

Results flagged for a closer look

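For 7 genes, the difference between cells without and with PDCD1 differed between PP and non-PP by the interaction term of edgeR's quasi-likelihood test (7 of 1170 genes, 0.598%). On the non-PP side it rested on 1 library, that of pig 2, which the test assumes to vary like the other libraries. The spread within non-PP was not measured, so the values that follow are descriptions. The interaction was 2.12 on the log2 scale for FCGR3A, which was higher without PDCD1 in both PP libraries and not in non-PP pig 2. That call was lost without PP replicate 1. The interaction was 1.66 for CD52, 1.72 for ISG15, 0.95 for IFI6 and 1.88 for 1 GZMA gene model. For ENSSSCG00000037141 it was 3.64 and for ENSSSCG00000031023 it was -3.65. These genes carry no symbol. For ENSSSCG00000037141, the PP libraries held 62.5 and 4432 CPM without PDCD1 against 2936 and 233 CPM with it, so the pigs went opposite ways. DESeq2 called FCGR3A alone, and without the library block 0 genes were called, with 64 at an unadjusted p under 0.05. The part of the single non-PP library was not tested.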

How the results depend on the processing

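Counts of called genes moved with most settings, and no listed or named gene reversed in direction. Between PP and non-PP, 2 genes were called, against 6 by DESeq2, 88 without a filter on low counts, 0 with 2 or more CD4 UMIs, 0 with cells of 2000 or more UMIs, 4 without the 5% of cells with the most UMIs, 4 without cells carrying CD79A, MS4A1, EPCAM or C1QA, 14 with the pig as a replicate block and 84 with that block and without the library labelled whole ileum pig 1 (0 to 50 when a replicate was left out). Unadjusted p under 0.05 was reached by 13 genes with 2 or more CD4 UMIs and by 88 with 2000 or more UMIs. Between ileum and blood, 277 were called, against 120 by DESeq2, 45 with 2 or more CD4 UMIs and 165 with 2000 or more UMIs (104 to 278 with a replicate left out), and the pig block gave 329 and lost none of the 66 listed or named calls. Against PDCD1-positive cells, 48 were called, against 25 by DESeq2, 98 without the filter, 21 with 2000 or more UMIs, 75 without the largest 5%, 1 with no replicate block, 142 with sums per pig and pig as a block and 128 with these sums without the library labelled whole ileum pig 1 (20 to 88 with a replicate left out). For the difference of that contrast between PP and non-PP, 7 were called, against 1 by DESeq2, 4 with 2000 or more UMIs, 2 without cells carrying CD79A, MS4A1, EPCAM or C1QA and 0 with no replicate block (2 to 5 with a replicate left out). Against the naive gate, 101 were called, against 41 by DESeq2, 51 without the filter, 28 with 2000 or more UMIs, 21 with no replicate block, 169 with sums per pig and 66 with these sums without the library labelled whole ileum pig 1 (40 to 103 with a replicate left out). Fewer cells and genes were tested under the stricter cell settings, and otherwise the cause was not tested. The share of CD3E-positive barcodes differed by 0.224 percentage points between PP and non-PP, by -0.363 of all filtered barcodes and by -0.129 without non-PP replicate 1 to 0.577 without non-PP replicate 2. Between ileum and blood it differed by 0.192, by -0.0916 with 2000 or more UMIs and by -0.0416 without PBMC replicate 1 to 0.425 without PBMC replicate 2. With a stricter limit on the level in empty droplets (at most 0.5 times that in the cells), 13 of 20 genes were named against PDCD1-positive cells, 0 of 1 for the difference of that contrast between PP and non-PP, and 15 of 20 against the naive gate (5 of 10 lower ones). The fits without the library labelled whole ileum pig 1 but with a pig block or sums were chosen after seeing the data. Not run were the setting of 2 or more CD4 UMIs in the class contrasts, and the difference between PP and non-PP without non-PP replicate 2. Depth was low: 221 cells of about 2450 UMIs left most transcription factors and cytokine receptors untested.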
